A study of Mus musculus with 3 samples.

Results

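NKX2-5 binding was examined around the 8 mouse genes that code for GATA factors (Gata1, Gata2, Gata3, Gata4, Gata5 and Gata6) and for their FOG cofactors (Zfpm1 and Zfpm2), out of 22350 protein-coding genes in the annotation. A binding region was counted for a gene when its midpoint lay within 100 kb of the gene body, so that 14 of 4418 regions in the first library and 26 of 5441 in the second were included. Gata4, Gata5, Gata6 and Zfpm2 are known for roles in the heart and are called the cardiac members here, and Gata1, Gata2, Gata3 and Zfpm1 are called the other members. The rule names the genes and counts peaks by position, without a score or a peak number, but the genes were chosen with earlier results of these data known.

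The data came from chromatin immunoprecipitation followed by sequencing (ChIP-seq), which maps where a protein sat on DNA. Hearts of wild-type Parkes mouse embryos at E11.5, an embryonic day when the chambers are forming, were fixed, and DNA fragments carrying the cardiac homeodomain factor NKX2-5 were collected with the N-19 antibody. The labels name the 2 ChIP libraries S1 and S4, and 1 Input sample was not analysed here. All libraries belonged to 1 condition, so no test between conditions could be made, and the labels do not say whether S1 and S4 came from separate hearts or litters. Whole hearts hold several cell types, and the deposited files hold binding regions and no expression values, so the tissue was not checked against marker genes. The enriched regions, or peaks, carried a score that grows as the peak caller's p-value falls, and that was read from its values as minus 10 times log10 of p. Both lists ran from a score of 140 to a cap of 3100. The numbers of reads were not used here, so differences between S1 and S4 cannot be told apart from differences in depth.

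GATA factors are zinc finger proteins that bind DNA at the core GATA and switch on cell-type genes, and FOG proteins do not bind DNA at such cores themselves but attach to GATA factors and bring in corepressors. GATA4, GATA5 and GATA6 act in the heart and endoderm, where GATA4 is a known partner of NKX2-5, and FOG2, the product of Zfpm2, binds GATA4 and is needed for formation of the coronary vessels and valves. GATA1 and GATA2 govern red cell and blood stem cell programmes together with FOG1, the product of Zfpm1, and GATA3 is known for T cell development.

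The sequences below are printed because they carry the regions described for each gene. They are 300 bases of the plus strand of mm9, 5′ to 3′, centred on the stretch covered by both peaks. They comprise the best-ranked shared region of Gata4, Gata5, Zfpm2 and Gata3, and for Gata4 also the shared regions inside the gene, which were added after their values were seen. Capitals mark exact matches, on either strand, to AAGTG (the core of the NKX2-5 site), TGACA (the core of the MEIS1 site) and GATAA (the core bound by GATA factors). Distances are from the 5′ end of the gene and are negative upstream of it.
Gata4 shared region at +1.97 kb, chr14:63888409-63888708: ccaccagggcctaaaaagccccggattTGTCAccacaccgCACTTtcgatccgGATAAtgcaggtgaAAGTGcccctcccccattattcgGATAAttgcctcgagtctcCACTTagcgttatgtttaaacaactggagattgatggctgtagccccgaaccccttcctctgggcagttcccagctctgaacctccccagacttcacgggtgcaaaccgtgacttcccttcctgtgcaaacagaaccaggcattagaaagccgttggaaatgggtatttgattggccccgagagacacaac
Gata4 shared region at +29.0 kb, chr14:63861420-63861719: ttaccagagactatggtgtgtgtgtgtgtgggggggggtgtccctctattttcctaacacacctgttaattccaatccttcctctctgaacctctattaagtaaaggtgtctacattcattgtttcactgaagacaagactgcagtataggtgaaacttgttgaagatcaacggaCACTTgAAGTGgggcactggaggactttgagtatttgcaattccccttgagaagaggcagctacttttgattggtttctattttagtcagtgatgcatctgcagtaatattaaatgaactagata
Gata4 shared region at -85.7 kb, chr14:63976075-63976374: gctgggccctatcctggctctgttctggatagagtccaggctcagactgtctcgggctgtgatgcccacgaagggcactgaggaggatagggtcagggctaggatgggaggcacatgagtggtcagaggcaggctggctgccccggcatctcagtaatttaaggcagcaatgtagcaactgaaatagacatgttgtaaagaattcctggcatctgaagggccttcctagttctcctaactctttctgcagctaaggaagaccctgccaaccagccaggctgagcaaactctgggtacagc
Gata5 shared region at -66.8 kb, chr2:180136080-180136379: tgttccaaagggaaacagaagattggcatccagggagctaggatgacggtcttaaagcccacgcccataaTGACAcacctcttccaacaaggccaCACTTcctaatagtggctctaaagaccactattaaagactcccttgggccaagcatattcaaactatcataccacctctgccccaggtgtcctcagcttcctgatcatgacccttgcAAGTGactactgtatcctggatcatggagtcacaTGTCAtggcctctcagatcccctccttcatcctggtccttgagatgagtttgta
Zfpm2 shared region at +325 kb, chr15:40811104-40811403: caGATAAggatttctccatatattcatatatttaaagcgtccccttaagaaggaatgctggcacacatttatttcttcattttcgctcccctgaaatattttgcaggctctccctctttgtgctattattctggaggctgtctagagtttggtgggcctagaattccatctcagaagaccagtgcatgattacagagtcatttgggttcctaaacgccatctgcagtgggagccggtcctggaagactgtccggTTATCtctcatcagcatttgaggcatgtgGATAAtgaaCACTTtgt
Gata3 shared region at -80.3 kb, chr2:9891805-9892104: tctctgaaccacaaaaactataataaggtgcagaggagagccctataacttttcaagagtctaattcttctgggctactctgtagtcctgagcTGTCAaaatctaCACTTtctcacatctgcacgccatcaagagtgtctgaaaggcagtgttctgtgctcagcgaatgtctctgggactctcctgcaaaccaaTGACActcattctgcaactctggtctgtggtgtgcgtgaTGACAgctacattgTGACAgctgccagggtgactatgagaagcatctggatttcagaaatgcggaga

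The cardiac members held 11 peaks in S1 and 24 in S4, and the other members 3 and 2. The mean of both libraries was 17.5 ± 9.19 (SD, n = 2) peaks near the cardiac members and 2.5 ± 0.707 (SD, n = 2) near the other members. Thus the number near the cardiac members was higher in both libraries. Most of these peaks lay near Gata4 (5 in S1 and 10 in S4) and Gata5 (4 and 10). Gata6 and Zfpm2 had 1 in S1 and 2 in S4 each, beside 1 and 1 for Gata3 and 2 and 0 for Zfpm1. Since the windows of the cardiac members were longer, 1365 kb against 920 kb, the numbers were also expressed per 100 kb of window. The density was 0.806 peaks per 100 kb in S1 and 1.76 in S4 for the cardiac members, and 0.326 and 0.217 for the other members. The cardiac density exceeded the other by 0.480 in S1 and 1.54 in S4, or 1.01 in the mean. Over the windows of all protein-coding genes, the density was 0.262 in S1 and 0.332 in S4, so that the other members lay above it in S1 and below it in S4. The other members had 29 protein-coding genes in their windows, themselves included, against 12 for the cardiac members.

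**Figure D1:**
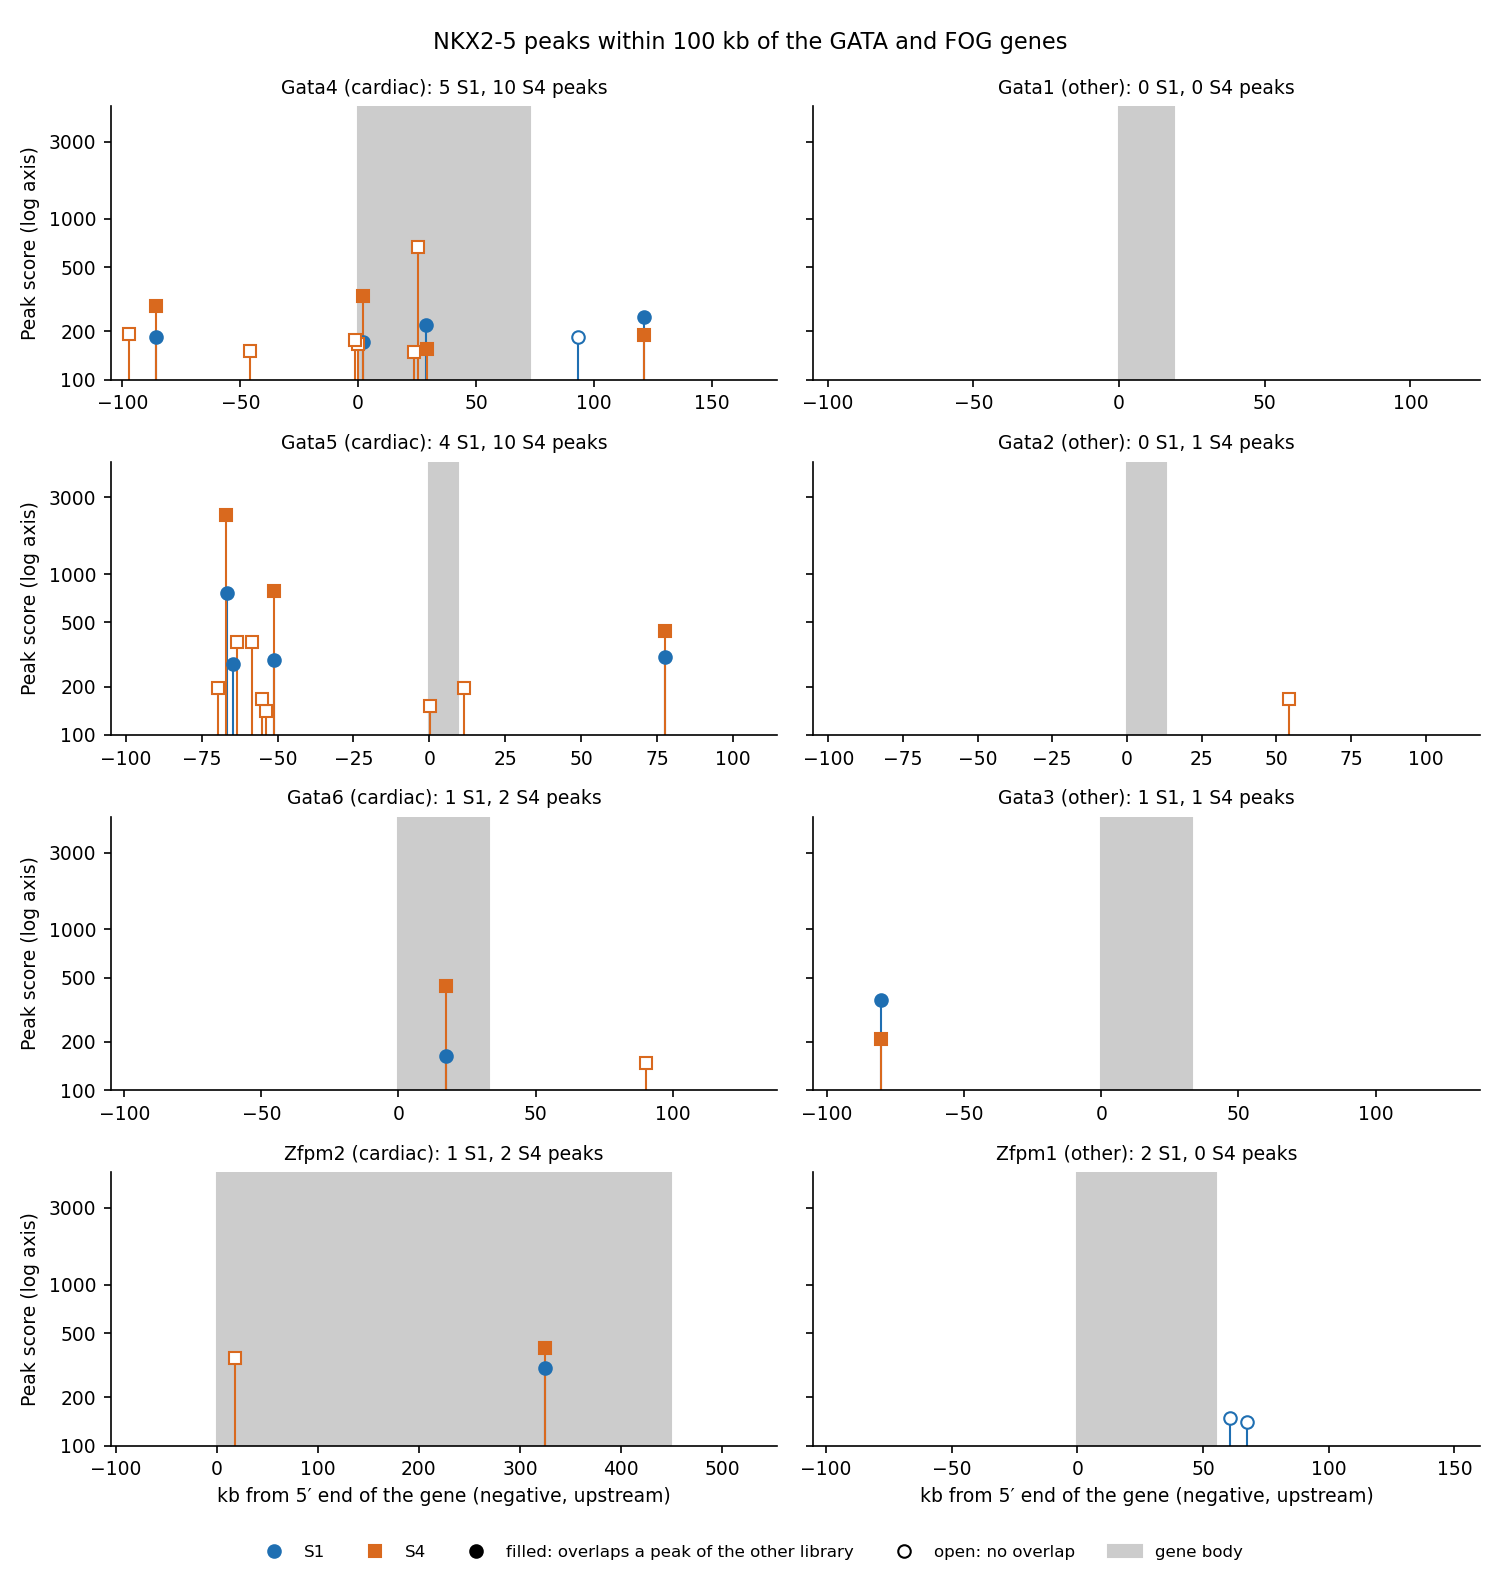
Peaks within 100 kb of the 8 genes, by distance from the 5′ end of the gene in kb (x axis) and peak score (y axis, log scale); circles are S1, squares are S4, filled symbols overlap a peak of the other library, open symbols do not, and the grey band is the gene body. Gata4 and Gata5 have 10 S4 peaks each, Gata1 has none in either library, and the highest score, 2324, is at -66.8 kb of Gata5 in S4.

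A peak had a partner when it overlapped a peak of the other library by at least 1 bp. Of the S1 peaks near the 8 genes, 11 of 14 (78.6%, exact 95% interval 49.2 to 95.3) had a partner in S4, beside 58.9% of all S1 peaks. Of the S4 peaks, 10 of 26 (38.5%, interval 20.2 to 59.4) had a partner in S1, beside 47% of all S4 peaks. Both intervals, which cover counting error only, include the share over the whole list. They treat peaks as independent, although Gata4 and Gata5 held 10 of the S4 peaks each. For the cardiac members alone, 10 of 11 S1 peaks (90.9%, interval 58.7 to 99.8) and 9 of 24 S4 peaks (37.5%, interval 18.8 to 59.4) had a partner. Near the cardiac members, 15 S4 peaks and 1 S1 peak had no partner. For the other members, 1 of 3 S1 peaks and 1 of 2 S4 peaks had a partner.

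Overlapping peaks were merged into 10 shared regions, of which 9 belonged to cardiac members and 1 to Gata3. This amounted to 0.659 shared regions per 100 kb for the cardiac members and 0.109 for the other members, beside 0.141 over all protein-coding windows. A shared region was found for 5 of the 8 genes, all 4 cardiac members and Gata3, whereas 24.3% of all protein-coding genes had one. At least 1 peak was present near 6 of the 8 genes in S1 and in S4, beside 38.4% and 44.7% of all protein-coding genes. The genes without an S1 peak were Gata1 and Gata2, and those without an S4 peak were Gata1 and Zfpm1.

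**Figure D2:**
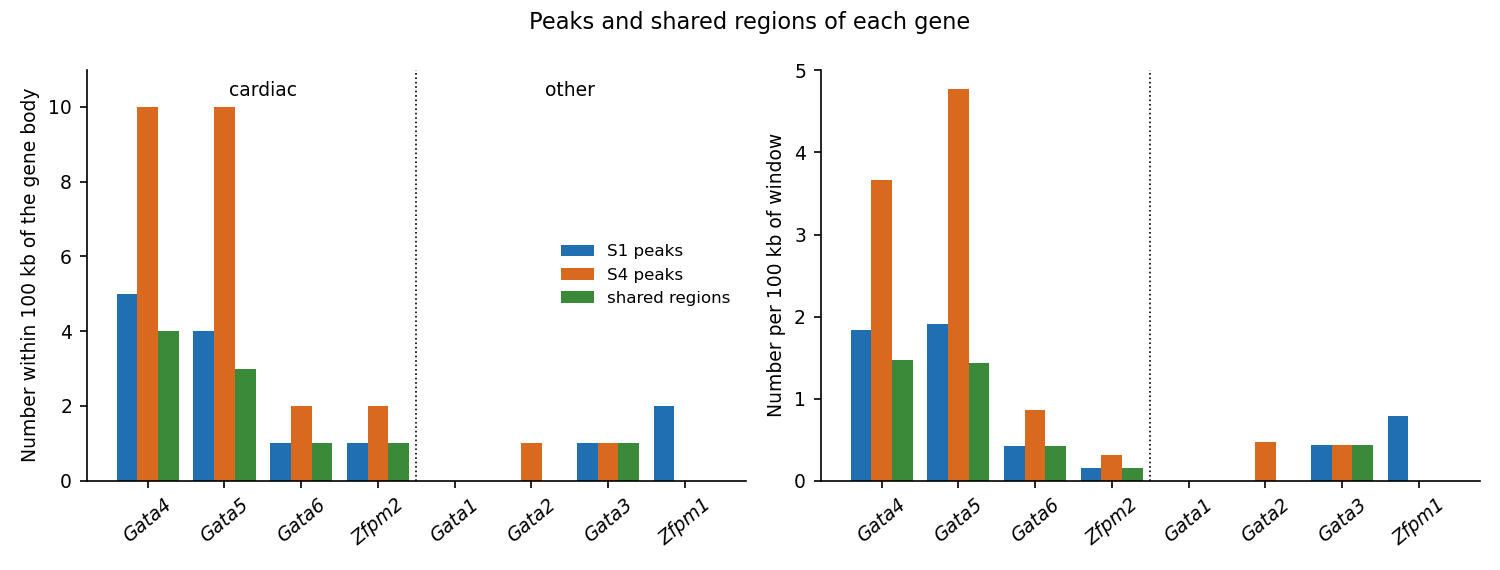
Number of S1 peaks, S4 peaks and shared regions within 100 kb of each gene body (left) and the same per 100 kb of window (right), with the cardiac members to the left of the dotted line. Gata4 and Gata5 stand highest on both scales, with 4 and 3 shared regions, and Zfpm2, whose window is 649.6 kb long, has the lowest non-zero density of shared regions, 0.154 per 100 kb.

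Gata4 encodes the GATA factor best known as a partner of NKX2-5 in heart muscle. The gene lies on the minus strand at chr14:63817759-63890529 and held 5 S1 peaks, 10 S4 peaks and 4 shared regions in a window of 272.8 kb. At least as many S1 peaks were found near 1.02% of protein-coding genes, at least as many S4 peaks near 0.0895%, and at least as many shared regions near 0.698%. Among 15314 genes with a window of similar length (within 25%), these shares were 0.875%, 0.0849% and 0.594%. The annotation gives Gata4 an outer group of transcript starts at its 5′ end, an inner group of 3 starts 26.4 kb further in, and 1 start 58.1 kb in. The window also holds Ctsb, Fdft1 and Neil2.

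Of the 4 shared regions of Gata4, 2 lay in its own introns. The first, at +1.97 kb, covered chr14:63887957-63888897 and lay 1.4 kb downstream of the start of the transcript Gata4-004. Its score was 171 in S1 and 329 in S4, so it was higher in S4. The other intronic region, at +29.0 kb, covered chr14:63861104-63861933 and lay 2.52 kb downstream of the inner starts. It scored 219.8 in S1 and 155 in S4, the opposite order. The remaining shared regions were more distant. One was in an intron of Fdft1, which encodes squalene synthase, at +121 kb (246 in S1 and 191 in S4), and one was intergenic at -85.7 kb (185 in S1 and 285 in S4), where the nearest gene body was Blk, a tyrosine kinase gene. Fdft1 also had an S1 peak without a partner at its promoter, with a score of 183.

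The highest-scoring peak near Gata4 was present in S4 only. It spanned 1987 bp, had a score of 669 and ranked 441 of 5441 peaks, with 8.11% of the list scoring at least as high. Its midpoint lay at -0.987 kb from the inner start of transcript Gata4-002. The nearest S1 peak was 2.17 kb away and was the shared region at +29.0 kb. S4 also had peaks without a partner at the outer start (+0.023 kb, score 167) and at -1.44 kb (score 176). The remaining S4 peaks without a partner near Gata4 scored 148 to 193. Thus the peaks at both groups of Gata4 starts were found in S4 alone, while the peaks of both libraries overlapped 1.4 and 2.52 kb downstream of them.

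Gata5, which encodes a GATA factor of the endocardium and endoderm, lies at chr2:180059838-180069404 on the minus strand. It had 4 S1 peaks, 10 S4 peaks and 3 shared regions in a window of 209.6 kb. At least as many peaks were found near 2.46% of protein-coding genes in S1 and 0.0895% in S4, and at least as many shared regions near 2.07%. Its gene body held no shared region, and the nearest was at -51.1 kb. The only peak at the Gata5 start was an S4 peak at chr2:180069014-180069527 with a score of 150.4, which 89.3% of the S4 list reached or exceeded. A further S4 peak without a partner, at +11.3 kb, scored 196.

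The peaks of Gata5 gathered in a stretch upstream of the gene, between -51.1 and -69.5 kb. This stretch held 3 of 4 S1 peaks, covering 4549 bp, and 7 of 10 S4 peaks, covering 11103 bp. The strongest region of all those near the 8 genes was here, at -66.8 kb (chr2:180133624-180138514). It joined 2 S1 peaks with scores of 276 and 759.6 to 1 S4 peak of 4473 bp with a score of 2324, which ranked 25 in S4, where 0.459% of peaks scored as high. The higher of the S1 peaks ranked 249. A second shared region, at -51.1 kb, lay at the promoter of the noncoding gene B230312C02Rik and scored 292 in S1 and 782 in S4. Both regions scored higher in S4.

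The upstream stretch also holds the precursors of 2 muscle microRNAs, Mir1a-1 at chr2:180123753-180123829 and Mir133a-2 at chr2:180133084-180133187, which are known for roles in heart muscle growth and differentiation. An S4 peak without a partner, score 376, covered Mir133a-2, and the nearest S1 peak was 0.436 kb from it. The gap between that S4 peak and the S1 peak was 0.183 kb. Mir1a-1 was not covered by a peak, the nearest S4 peak lay 0.315 kb away and the nearest S1 peak 2.97 kb away. Peaks without a partner on either side of Mir1a-1 scored 141 and 167 in S4. The third shared region of the Gata5 window was at the promoter of Rps21, a ribosomal protein gene, at +77.5 kb, and scored 304 in S1 and 444 in S4. By nearest gene body, none of the 3 shared regions was assigned to Gata5.

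**Figure D3:**
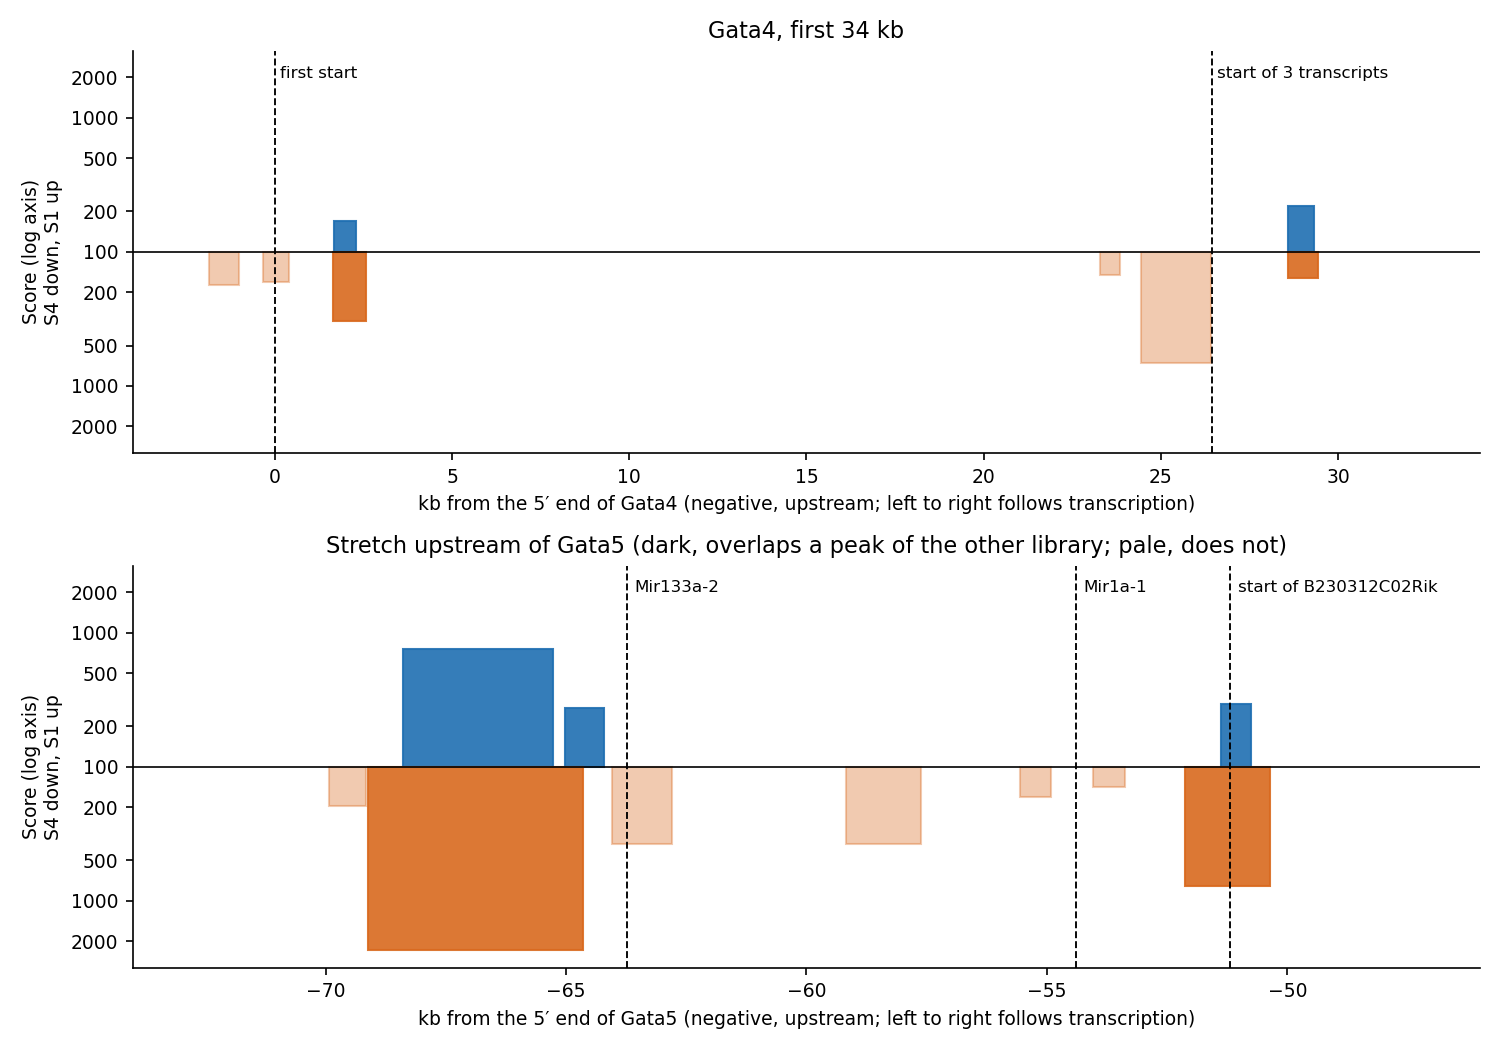
Peaks along the first 34 kb of Gata4 (top) and the stretch upstream of Gata5 (bottom), by distance in kb from the 5′ end of the gene; each box spans a peak's width, its height is the score on a log axis that starts at 100, S1 points up and S4 down, and dark boxes overlap a peak of the other library. At Gata4 the S4 peak of 669 next to the inner starts has no S1 box above it, and at Gata5 the S4 peak of 2324 overlaps both S1 peaks of 276 and 759.6.

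Gata6 encodes a GATA factor of the heart outflow tract and endoderm. The window held no other protein-coding gene, with 1 S1 peak, 2 S4 peaks and 1 shared region. The shared region was in a Gata6 intron at +17.2 kb and scored 163 in S1 and 446 in S4. These values placed it at rank 3377 of the S1 list and rank 880 of the S4 list. The S4 peak without a partner was at +90.2 kb, with a score of 147. Of all protein-coding genes, 38.4% had at least as many S1 peaks, 20.1% at least as many S4 peaks and 24.3% at least as many shared regions, so that the numbers for Gata6 were reached by many genes.

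Zfpm2, which encodes FOG2, lies at chr15:40486588-40936138 on the plus strand and is a long gene with no other protein-coding gene in its window. It held 1 S1 peak, 2 S4 peaks and 1 shared region. The shared region lay inside an intron at +325 kb (chr15:40810835-40811630) and scored 304 in S1 and 405 in S4. An S4 peak at +18.3 kb, also intronic, scored 352 without an S1 partner, and the nearest S1 peak was 306 kb from it. Among 435 genes with windows of similar length, 56.6% had at least as many S1 peaks, 35.9% at least as many S4 peaks and 42.5% at least as many shared regions. Thus the count for Zfpm2 was within that of many genes of its size.

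Among the other members, Gata3 was the only one with a shared region. Gata3 lies at chr2:9778705-9811661, and the region lay at -80.3 kb in an intron of Taf3, which encodes a subunit of the general factor TFIID. It scored 362 in S1 and 208 in S4. No peak lay closer to Gata3 in either library.

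Zfpm1, which encodes FOG1, lies at chr8:124806039-124861146. It had 2 S1 peaks past its 3′ end, at +60.8 and +67.4 kb, with scores of 149 and 141, near the minimum of the list. Neither had a partner, and the nearest S4 peak was 239.7 kb from the gene. The annotation places Zfpm1 inside Gm20388, a gene model of 4435 kb, so the intronic position of these peaks refers to that model. Gata2, at chr6:88143885-88157024, had 1 S4 peak at +54.3 kb with a score of 167, and its nearest S1 peak was 744 kb away. For Gata1, at chrX:7536386-7555197, the nearest peak of either library was 869 kb from the gene, with a score of 275 in S1 and 341 in S4. Gata1 was the member with the most crowded window, which held 12 other protein-coding genes.

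The shared regions near the 8 genes were in introns in 6 cases, at promoters (within 1 kb of a transcript start of any gene) in 2 and intergenic in 2. Both promoter regions belonged to genes other than members, Rps21 and B230312C02Rik. Over all 2546 shared regions, 17.1% lay at a promoter. By gene body, the member was the nearest protein-coding gene for 4 of the 10, which were the 2 intronic regions of Gata4 and those of Gata6 and Zfpm2. By nearest protein-coding start, the Gata5 region at -51.1 kb was also nearest to its member. Counting each library's peaks, 4 S1 and 9 S4 peaks lay within a member's own body, all of them in cardiac members. Body length differed, from 9.57 kb for Gata5 to 449.6 kb for Zfpm2 among cardiac members, and from 13.1 to 55.1 kb among the other members. No share over all genes was computed for this count. The nearest gene body was a member for 4 S1 and 13 S4 peaks, and for none of the peaks near the other members. For Zfpm1 this was set by the annotation, because Gm20388 covers its whole window and took both of its S1 peaks. By nearest protein-coding start, a member was nearest for 5 S1 and 16 S4 peaks, again none of them near the other members.

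Scores of the peaks near the 8 genes ranged from 141 to 759.6 in S1, with a median of 233, beside 212 over the whole S1 list. In S4 they ranged from 141 to 2324, with a median of 196 beside 223. Thus 8 of 14 S1 peaks and 11 of 26 S4 peaks exceeded the median of their list. The cardiac members had medians of 246 in S1 and 196 in S4, and the other members 149 and 188. The peaks were 691.5 bp wide in the median in S1 and 832 bp in S4, beside 625 and 783 bp over the lists. Of the 10 shared regions, 7 had a higher score in S4, beside 60.6% of all shared regions. All 7 were near cardiac members, which held 9 of the 10. The ratio of S4 to S1 score lay between 0.574, at Gata3, and 3.06, at -66.8 kb of Gata5. The shared regions with a lower score in S4 were the Gata4 regions at +29.0 and +121 kb and that of Gata3.

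**Figure D4:**
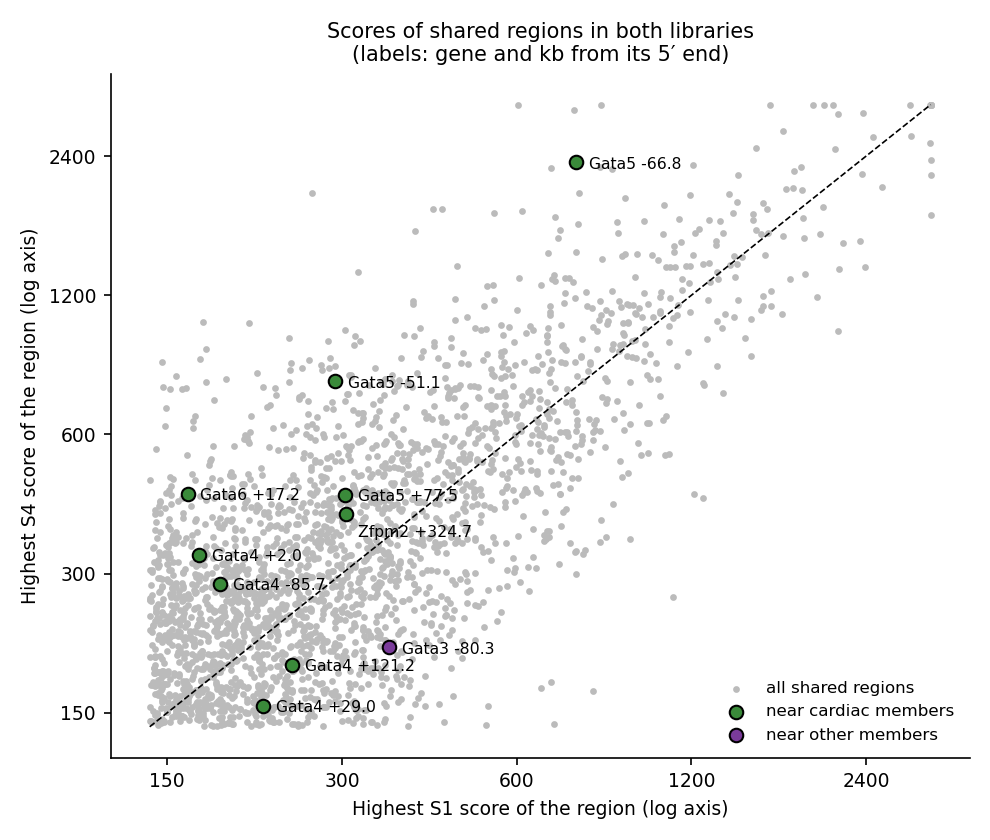
Highest score of each shared region in S1 (x axis) and S4 (y axis), both on log axes, with the 10 regions near the 8 genes named by gene and distance in kb, all other shared regions in grey, and equal scores on the dashed line. The Gata5 region at -66.8 kb lies farthest above the line among the 10, and 3 regions lie below it.

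The sequence of the 10 shared regions was searched in 300 bases centred on the stretch covered by both peaks, on both strands. AAGTG was found in 7 of 10 regions, beside 76.1% of all shared regions and 52.8% of windows 2 kb to the side. TNAAGTG, a longer NKX2-5 core that contains AAGTG, was in 2 of 10, beside 40.9% and 16.4%. TGACA was in 5 of 10, beside 75.1% and 52.8%. GTGNTGACA, which contains TGACA and joins it to an end of the NKX2-5 core, was in 2 of 10, beside 12.3% and 1.22%. GATAA was in 3 of 10, beside 45.2% and 36.4%, and GGTGTGA (the T-box core) was in 0 of 10, beside 6.21% and 4.46%. These numbers describe the 10 regions, of which 6 are printed above, and do not set them apart from the rest.

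Individual regions differed in the matches they held. The Gata4 region at +1.97 kb had 3 matches to AAGTG, 2 to GATAA and 1 to TGACA within 300 bases, the TGACA being part of GTGNTGACA. An AAGTG and a GATAA match lay 13 bp apart there, counted between their centres. The Gata4 region at +29.0 kb had a pair of AAGTG matches in opposite orientation with 1 base between them, centred 28 and 34 bp from the midpoint, both within TNAAGTG, and no GATAA. The Gata4 region at -85.7 kb had none of the 3 cores in its window. The Zfpm2 region had 3 GATAA and 1 AAGTG match, the closest of them 9 bp apart, and the Gata6 region had 3 AAGTG and 1 GATAA, also 9 bp apart at the closest. In the Gata3 region, 4 TGACA matches and 1 AAGTG were found, one of the former within GTGNTGACA. The Gata5 region at -66.8 kb had 2 AAGTG and 2 TGACA matches, and the Gata5 region at -51.1 kb had none of the 3 cores.

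Over the whole stretch covered by both peaks, an alternative chosen after the data were seen, AAGTG was found in all 10 regions, beside 89.9% of all shared regions, with 48 matches in 9.67 kb. This is 4.96 matches per kb, beside 3.74 per kb over all shared regions. The stretch at -66.8 kb of Gata5, 3110 bp long, held 16 of the 48. The longer core TNAAGTG was found in 4 regions, beside 54.7%, with 12 matches, 1.24 per kb beside 1.22. GATAA was found in 6 regions, beside 64.3%, with 17 matches, 1.76 per kb beside 1.78. TGACA was found in 9 regions, beside 86.8%, with 25 matches, 2.59 per kb beside 3.95. Of the 16 S4 peaks without a partner near the 8 genes, 10 held AAGTG (beside 66.8% of all such S4 peaks), 9 TGACA (63.1%), 6 GATAA (40.1%) and 0 GTGNTGACA (6.10%). A match describes the letters of a window and is not a measured site.

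**Figure D5:**
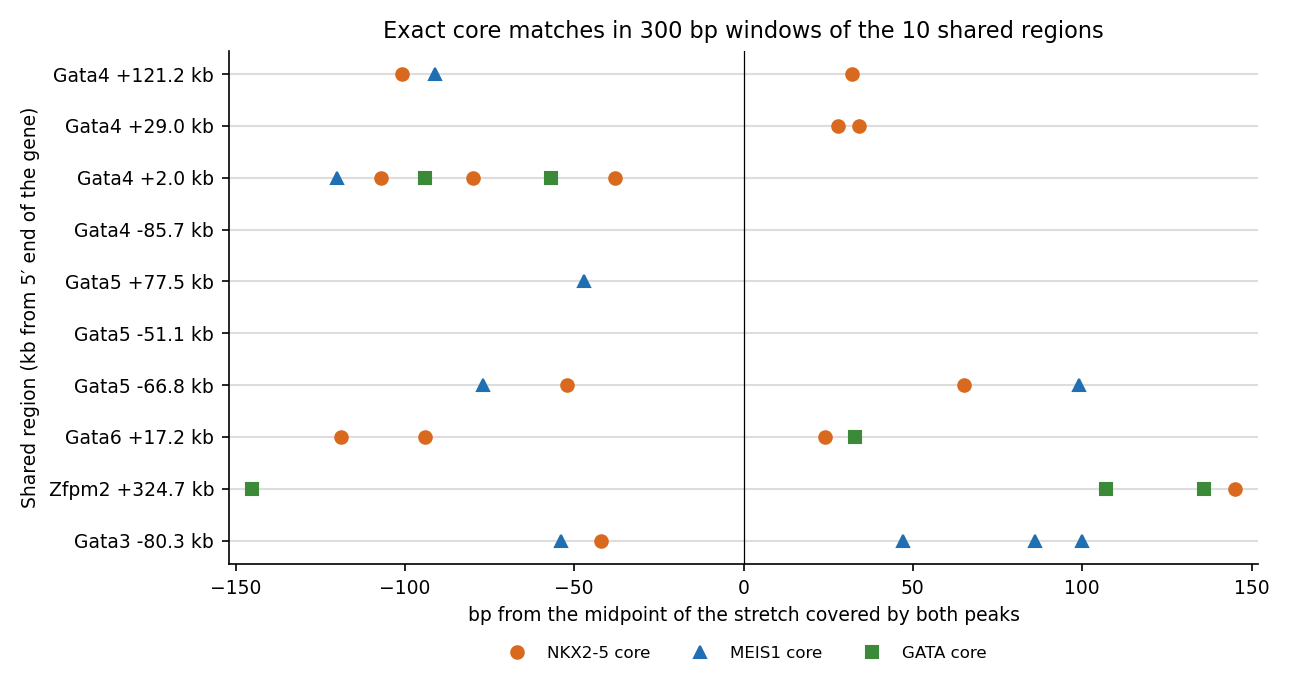
Positions of exact matches to the NKX2-5, MEIS1 and GATA cores, in bp from the midpoint (x axis), in the 300 bp windows of the 10 shared regions, 1 per line (y axis, gene and distance in kb). The Gata4 region at +2.0 kb has 6 matches, 3 of them on the minus strand, all at negative positions, and the Gata4 region at -85.7 kb and the Gata5 region at -51.1 kb have none.

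Lists of genes from the same pathways were counted by shared regions within 100 kb, beside the 24.3% of all protein-coding genes that had one. Among genes for cardiac GATA targets, 7 of 10 had a shared region. Myh6 and Myh7, the neighbouring myosin heavy chain genes, had the same 7 regions, with scores up to 838 in S1 and 3100 in S4, and Nppa and Nppb, the natriuretic peptide genes, had the same 5, so that the list comprised 15 distinct regions. Bmp4, Ccnd2 and Cdk4 had none. Among GATA4 partners in the heart, 2 of 10 had one. These were Hand2, a bHLH factor of the right ventricle, with 4 regions scoring up to 319 in S1 and 631 in S4, and Tbx20, a T-box factor, with 1 region (259 and 294). Nkx2-5 itself had 3 S1 and 8 S4 peaks but no shared region, and Tbx5 had 5 and 4 peaks and no shared region.

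Among the nuclear partners of FOG proteins, 7 of 14 corepressor genes had a shared region, all of them coding for subunits of the NuRD complex (Chd3, Chd4, Gatad2a, Mbd3, Mta1, Mta2 and Mta3), while 5 further NuRD genes and Ctbp1 and Ctbp2, the C-terminal binding proteins, had none. Of the blood partners of GATA1 and GATA2, 6 of 10 had one, including Runx1, a blood stem cell factor, which scored 747 in S1 and 483 in S4. Among erythroid GATA targets, the haem enzyme genes Alas2 and Urod and the genes Epor, Slc4a1 and Slc25a37 had none, and no share is given for that list. Gene density in these windows was not taken into account, and a shared region within 100 kb may lie nearer to another gene.

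The protein-coding genes outside these lists whose density of shared regions was nearest to that of Gata4, 1.47 per 100 kb, among windows of similar length, were Ypel4, Dnajc4 and Tspan10. Each had 3 shared regions and 1.47 per 100 kb to the digits given.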

How the data were processed

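The labels gave 2 NKX2-5 ChIP libraries and 1 Input, which was not analysed here. Per the study's methods, BOWTIE mapped the reads to mm9 and MACS 1.4 called the peaks, and the submitters' processing notes name CASAVA 1.4. The settings, the BOWTIE version and the use of the Input by the peak caller are not given in the sources used here. For each library the authors deposited a list of peaks, each with a score, read from its values as minus 10 times log10 of p. The deposited start and end columns are positions in base pairs, given here counted from 1. Read depth is unknown, and scores are not scaled between libraries.

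Genes were those of GENCODE M1 (mm9), and all 8 names were matched. The members and gene lists were chosen with earlier results of these data known. All members are named, with each shared region and the highest-scoring peak without a partner. Peaks and regions were assigned by midpoint, and a score cap of 3100 was kept. Shared regions merged overlapping peaks. Intervals are exact Clopper-Pearson intervals at 0.95. Since 1 condition was measured in 2 libraries, no hypothesis test was run. Counting procedures were tested on simulated data. The alternatives were windows of 50 and 200 kb, the nearest gene body, a score of at least 200, an overlap of at least 50%, midpoints within 150 bp, a window of 100 kb around the 5′ end, leaving out each library, a promoter limit of 5 kb and other motif windows. Sequences were read from NCBIM37, which is mm9. Some genes of the erythroid list, and with them that list's share, and a sequence are not reported here. Python 3.11.15, numpy 2.4.6, pandas 2.3.3, scipy 1.17.1, pysam 0.24.0 and matplotlib 3.10.9 were used.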

Additional observations from a re-analysis of the deposited data

How the results depend on the processing

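Of 77 values recomputed under 13 other settings, 50 stayed within the limits set for change, 27 moved and none reversed. Cardiac members had more peaks per 100 kb than other members in 7 of 7 settings. These settings reuse the same peak lists and genes, so they are not independent. None of them left out Gata4 or Gata5, which held most of the cardiac peaks. In S1, Gata6 had 0.429 and Zfpm2 0.154 peaks per 100 kb, beside 0.326 for the other members together, 0.429 for Gata3 and 0.784 for Zfpm1. In S4, Gata6 had 0.858 and Zfpm2 0.308, beside 0.217 for the other members together and 0.429 for Gata3. The S1 excess therefore rested on Gata4 and Gata5 and was not a trait of each cardiac member. Within 50 kb of the gene body, the mean of both libraries was 11 peaks, of which 9.5 were near cardiac and 1.5 near other members, with 5 shared regions (5 cardiac, 0 other), 3 genes with a shared region and a median S1 score of 177. Within 200 kb, the median S1 score was 261. By nearest gene body, the mean was 8.5 peaks (8.5 cardiac, 0 other), with 4 shared regions (4 cardiac, 0 other) near 3 genes. Under that rule, peaks outside the body of Zfpm1 could not be assigned to it, because the gene model Gm20388 covers its whole window. With a score of at least 200, it was 10 peaks (9 cardiac, 1 other), with 5 shared regions (4 cardiac) near 3 genes. Fewer peaks follow from the narrower window or the higher minimum.

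Leaving out each library gave 14 to 26 peaks near all members, 11 to 24 near cardiac members and 0.480 to 1.54 for the difference per 100 kb. Within 25 bp of the midpoint, AAGTG and GATAA were each in 0 shared regions, in a shorter window. The share over all shared regions was not computed for that window, so whether this count is unusual is not known. The midpoint is that of the stretch covered by both peaks and not a peak summit. Over the whole stretch, GATAA was in 6, beside 64.3% of all shared regions. With a promoter limit of 5 kb, 5 shared regions counted as promoter. The share over all shared regions was computed only for the limit of 1 kb, so this count has no background beside it. Without read numbers, precision of scores cannot be given. No paired analysis was possible because the libraries belong to 1 condition.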
